A study of Mus musculus with 12 samples.

Results

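The effect of renal ischemia-reperfusion (IR) injury on the kidney transcriptome was measured in wild type (WT) mice by comparing the RNA-seq libraries of 3 kidneys labelled as injured with those of 3 kidneys labelled Healthy control. These 6 libraries were chosen by their genotype and treatment labels out of 12 in the series, the other 6 being labelled Tet2-/-. All mice were C57BL/6 by their labels and 6 weeks old, and the study used males. In the IR group the right renal pedicle was clamped for 60 min and then released, the left kidney was removed, and the right kidney was taken 24 h after the operation. No operation is given for the Healthy control mice, called WT baseline here, so ischemia, reperfusion, anaesthesia, surgery and the loss of the other kidney cannot be told apart in this comparison. The RNA came from whole kidney, in which fewer cells of a type and less RNA per cell cannot be told apart either. Each gene symbol was represented by its transcript with the highest total count, and 16043 of 24421 symbols passed a filter on low counts and were tested with edgeR's quasi-likelihood test, with p-values adjusted over all of them by the Benjamini-Hochberg method. A gene was called higher or lower when its adjusted p was under 0.05 and its fitted difference exceeded 1 on the log2 scale. Levels are given as FPKM, read fragments scaled to transcript length and library size, and differences as log2 fold changes of IR over baseline with their standard error (SE).

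As background, the tubule cells of the outer medulla and cortex depend on oxidative metabolism and are the cells most easily injured when blood flow stops and returns. Injured tubule cells lose their brush border, dedifferentiate and re-enter the cell cycle to repopulate the tubule, while they release secreted markers such as KIM-1 and NGAL into the urine. The same cells switch on antioxidant enzymes under the transcription factor NRF2, and signals from injured tissue draw in neutrophils and monocytes.

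IR changed 377 genes in WT kidneys by these criteria. Of the 16043 genes tested, 236 rose, or 1.47%, and 141 fell, or 0.879%. The median size of the change was 1.88 on the log2 scale among the genes that rose and 1.70 among those that fell, and 106 and 51 genes, respectively, changed over 4-fold. In all 377, the 3 IR libraries did not overlap the 3 baseline libraries. Such separation was more frequent than the calls, since all IR libraries lay above all baseline libraries in 14.9% of genes tested and below them in 14.5%. Libraries with the same replicate number deviated together, and with the replicate number as a block 429 genes rose (2.67%) and 559 fell (3.48%), including all 377. The median over all genes tested was -0.03, so the fitted changes are close to changes relative to the median gene.

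**Figure D1:**
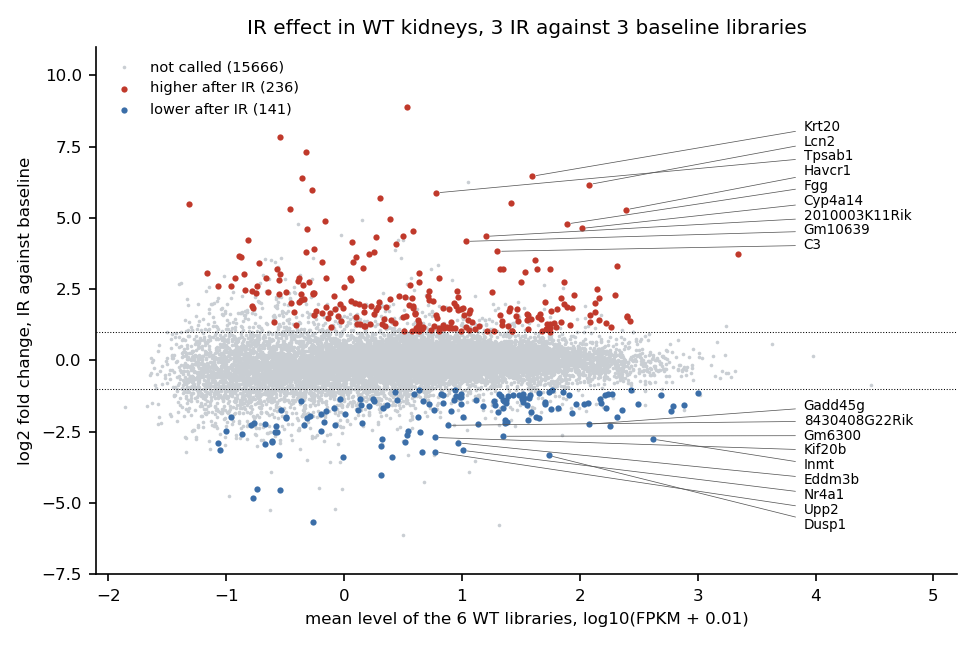
Log2 fold change of IR over baseline in WT kidneys (vertical axis) against the mean level of the 6 libraries (horizontal axis, log10 of FPKM), 1 point per gene tested. Genes called higher (236) are red and genes called lower (141) blue, the dotted lines mark changes of 1 each way, and most genes lie between them.

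The libraries held 51007362 to 70674066 counts over 1 transcript per symbol, and no pair of replicates was a repeat of the same library. The first 2 principal components of the 6 libraries held 52.5% and 16.9% of the variance. Some libraries stood apart. Markers of adipocytes had a mean level, as log2(FPKM + 0.1) over 20 genes, of 0.82, 2.51 and 3.55 in WT baseline 1, 2 and 3 and of 0.36 to 0.83 in the IR libraries. Of the 16 adipocyte markers tested 0 were called, and 7 fell with the block, against 3.48% of all genes tested. WT IR 3 was lowest in the markers of endothelium, podocytes and stroma. WT IR 1 showed the smallest shift: among the IR libraries it was the closest to baseline in 174 of the 236 genes that rose and in 72 of the 141 that fell. Without WT IR 1, 372 genes rose and 187 fell. Without both WT baseline 2 and 3, 0 genes rose and 1 fell, which leaves 1 library against 3.

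Markers of tubular injury had the highest median change of the 44 gene lists described here. Of 23 tested genes in a list of 25 such markers, 8 rose and 0 fell, against 1.47% higher over all genes tested, and the median log2 fold change was 1.64 against -0.03. With the replicate block 13 rose and 1 fell, against 2.67% and 3.48% of all genes tested. With a library left out 1 to 11 rose, 11 of them without WT IR 1, and without both WT baseline 2 and 3 the median was 2.02. Havcr1, which encodes KIM-1, a phagocytic receptor on injured proximal tubule cells (chr11:46564013-46593080 in mm9), measured 12.8, 7.63 and 15.3 FPKM in the baseline kidneys and 214, 559 and 670 FPKM after IR. The lowest IR kidney was far above the highest baseline kidney. The log2 fold change of Havcr1 was 5.29 (SE 0.56; adjusted p = 0.00997, edgeR), and its call held whichever library was left out.

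Lcn2 encodes NGAL, a siderophore-binding protein of injured distal tubule and of neutrophils (chr2:32240157-32243259 in mm9). Its level was 2.47, 4.24 and 2.60 FPKM at baseline and 74.2, 476 and 158 FPKM after IR, so the IR kidneys spread widely and all lay above baseline. The log2 fold change of Lcn2 was 6.17 (SE 0.76; adjusted p = 0.0137, edgeR). Krt20, an epithelial keratin (chr11:99289717-99299467 in mm9), measured 0.247, 1.37 and 1.01 FPKM at baseline against 26.6, 56.9 and 151 FPKM after IR. Its log2 fold change of 6.46 (SE 0.94; adjusted p = 0.0219, edgeR) was the largest among genes with a mean of at least 10 FPKM in the higher group. Spp1, which encodes the secreted matrix protein osteopontin, had the highest levels of the list, with 188 to 432 FPKM at baseline and 1163, 6394 and 4722 FPKM after IR. Timp1, an inhibitor of metalloproteinases, rose by 4.54 on the log2 scale (SE 0.59; adjusted p = 0.0155, edgeR). Tnfrsf12a, the TWEAK receptor, Clu, the chaperone clusterin, and Lgals3, which encodes galectin-3, rose by 2.76, 2.21 and 2.19.

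Several injury markers did not pass. Gdf15, a stress cytokine, measured 12.1, 10.7 and 4.43 FPKM at baseline and 10.6, 57.3 and 43.8 FPKM after IR, where WT IR 1 lay within the baseline range (adjusted p = 0.134, edgeR). Vcam1 and Ccl2, of leukocyte recruitment, had log2 fold changes of 0.24 and 0.71 with adjusted p-values above the threshold.

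**Figure D2:**
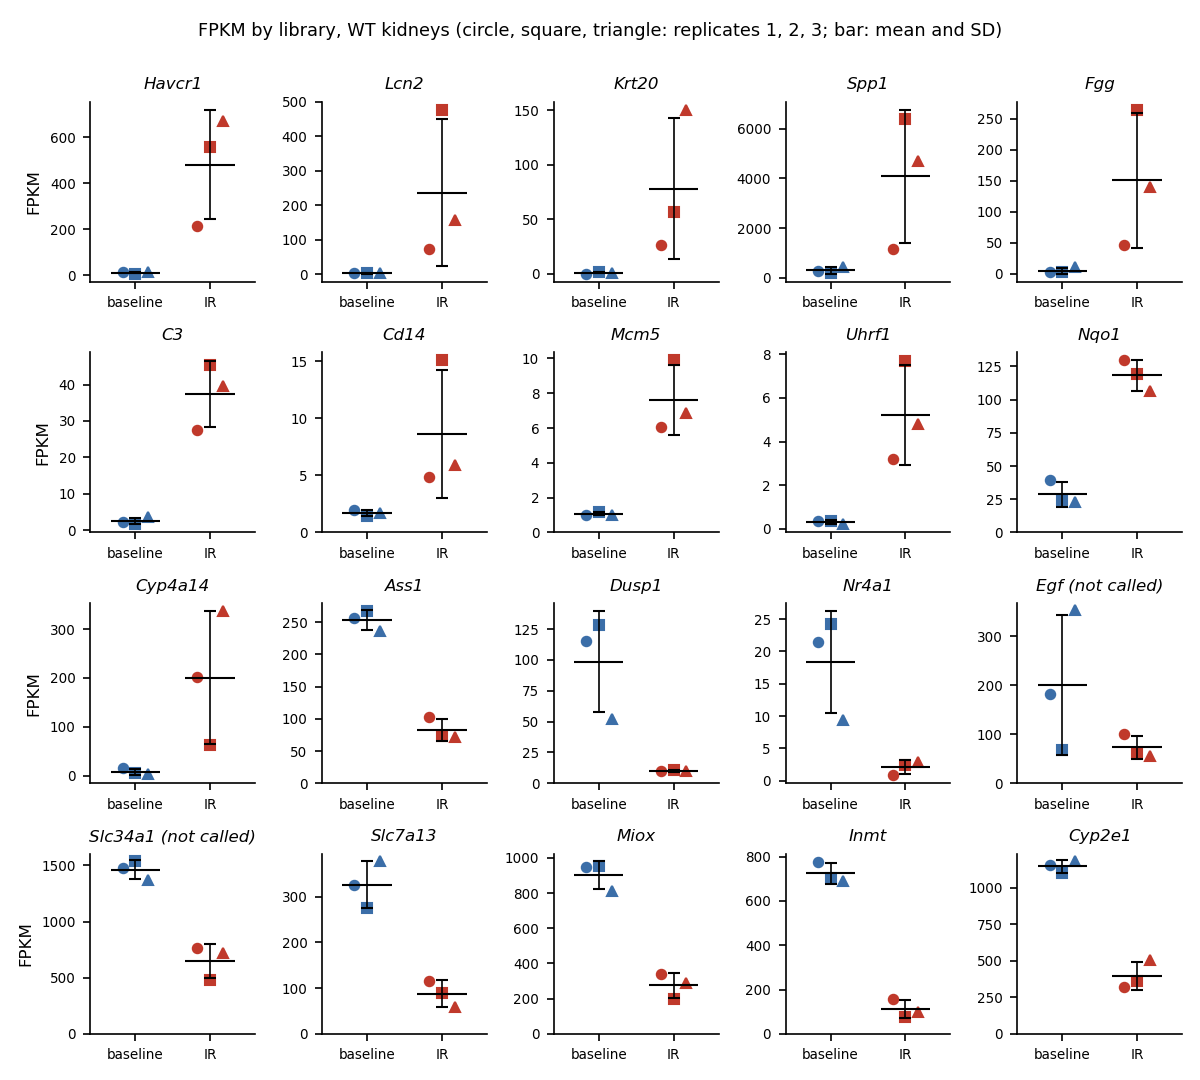
Level of 20 genes in each of the 6 WT kidneys (vertical axes, FPKM, linear scale), baseline and IR side by side, 1 symbol per library with the mean and SD of 3. Havcr1 rises from at most 15.3 FPKM to at least 214 FPKM, while Dusp1 falls from at least 51.8 FPKM to at most 10.9 FPKM.

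Among keratins and cytoskeletal genes, 5 of 22 tested rose and 0 fell, against 1.47% higher over all genes tested. With the block 5 rose and 1 fell, against 2.67% and 3.48%. The median was 0.59, and in 11 of them every IR kidney lay above every baseline kidney, against 14.9% of all genes. Krt8, a keratin of simple epithelia, measured 64.1, 67.2 and 54.6 FPKM at baseline and 134, 208 and 276 FPKM after IR (log2 fold change 1.69, SE 0.29; adjusted p = 0.0341, edgeR). Its partner Krt18 did not separate, with 20.2 to 48.2 FPKM at baseline and 28.4 to 59.3 FPKM after IR. Anxa3, a membrane-binding annexin, rose by 3.22 and Anln, the cytokinesis scaffold anillin, by 2.35. With a library left out 0 to 6 genes of this list rose, and without both WT baseline 2 and 3 its median was 0.84. Of 26 tested renal epithelial transcription factors, 0 rose and 0 fell, and 1 rose with the replicate block (Foxj1). Sox9, a transcription factor of regenerating tubule, measured 0.051 to 0.107 FPKM at baseline and 0.186, 2.17 and 0.641 FPKM after IR, with no overlap but an adjusted p of 0.0771 by edgeR. Hnf4a, which maintains proximal tubule identity, measured 124 to 172 FPKM at baseline and 147 to 155 FPKM after IR (log2 fold change -0.10, SE 0.18).

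Genes of DNA replication and the cell cycle held the most calls of any list. Of 37 tested, 11 rose and 0 fell, against 1.47% higher over all genes tested. The median was 0.94, and in 28 every IR kidney lay above every baseline kidney, against 14.9% of all genes. With the replicate block 18 rose, against 2.67%, and with a library left out 5 to 14 rose. Without both WT baseline 2 and 3 the median was 1.11. Uhrf1, which recruits the maintenance DNA methyltransferase to newly made DNA (chr17:56442760-56462909 in mm9), measured 0.360, 0.332 and 0.198 FPKM at baseline and 3.19, 7.72 and 4.78 FPKM after IR. The groups of Uhrf1 did not overlap, and its log2 fold change was 4.08 (SE 0.40; adjusted p = 0.00844, edgeR). Of the subunits of the replicative MCM helicase, 5 rose: Mcm6 by 3.82, Mcm5 by 2.77, Mcm3 by 2.64, Mcm2 by 2.12 and Mcm4 by 1.54 on the log2 scale. Mcm7 had a log2 fold change of 0.74 and was not called. Mcm5 went from 1.03, 1.17 and 1.02 FPKM at baseline to 6.09, 9.91 and 6.87 FPKM after IR, a narrow spread within each group.

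Some factors that load or drive replication rose with the helicase, while Cdc6, Ccne1, Ccne2, Cdk2 and E2f2 of the same list were not called. Cdt1, which loads it onto origins, rose by 2.19 (SE 0.21; adjusted p = 0.00844, edgeR), and E2f1, the transcription factor of the G1/S transition, by 1.92 (SE 0.22; adjusted p = 0.0108, edgeR). Among mitotic genes, Top2a, the topoisomerase that untangles sister chromatids, rose by 2.64, and Ccnb1, which encodes cyclin B1, by 1.91 from a mean of 0.0627 FPKM. Mki67, the proliferation antigen Ki-67, measured 0.133, 0.189 and 0.065 FPKM at baseline and 0.398, 0.716 and 0.227 FPKM after IR, which was not called (adjusted p = 0.113, edgeR) and was called with the block (adjusted p = 0.0122, edgeR). Pcna, the sliding clamp of the replication fork, had an adjusted p of 0.0335 by edgeR but a log2 fold change of 0.94, just under the threshold. Dnmt1, the maintenance methyltransferase itself, rose from 2.91, 2.64 and 2.74 FPKM to 5.89, 7.48 and 6.17 FPKM (log2 fold change 1.17, SE 0.13; adjusted p = 0.0108, edgeR). Tet1, Tet2 and Tet3, the 5-methylcytosine dioxygenases the study is about, were not called, with log2 fold changes of -0.10, -0.48 and -0.12. Tet2 measured 9.15, 6.25 and 7.33 FPKM at baseline and 9.34, 3.97 and 3.85 FPKM after IR, so WT IR 1 was the highest and WT IR 2 and 3 the lowest of the 6. Of 31 tested ribosome biogenesis genes 0 were called, and 29 had a positive log2 fold change, with a median of 0.43 and 18 with every IR kidney above every baseline kidney, against 14.9% of all genes.

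The windows of 250 bases before the start sites of Mcm5 and Mcm6 are shown because both genes rose and hold matches to an E2F-type motif. In RefSeq's GRCm38.p6 annotation, 11898 of the 16043 genes tested had such a window, including 168 of the 236 that rose and 112 of the 141 that fell. The letters TTTNGCGC, searched on both strands, were found in 1.91% of all these windows, in 5.36% of those of genes that rose (9 genes) and in 0 of those of genes that fell. Among cell cycle genes they were in 3 of 30 windows of those tested and 2 of 10 of those that rose. The 9 genes include Fgg, which encodes a fibrinogen chain and whose window, with 1 match, is not shown. Capitals mark the matches, adjoining or overlapping ones running together, at chr8:75109259-75109508 on the plus strand for Mcm5 (2 matches) and chr1:128359706-128359955 on the minus strand for Mcm6 (3 matches).
Mcm5: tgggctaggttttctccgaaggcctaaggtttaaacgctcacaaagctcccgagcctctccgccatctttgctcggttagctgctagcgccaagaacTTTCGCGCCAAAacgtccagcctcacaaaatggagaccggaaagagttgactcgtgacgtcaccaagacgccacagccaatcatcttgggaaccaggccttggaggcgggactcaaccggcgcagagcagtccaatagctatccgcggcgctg
Mcm6: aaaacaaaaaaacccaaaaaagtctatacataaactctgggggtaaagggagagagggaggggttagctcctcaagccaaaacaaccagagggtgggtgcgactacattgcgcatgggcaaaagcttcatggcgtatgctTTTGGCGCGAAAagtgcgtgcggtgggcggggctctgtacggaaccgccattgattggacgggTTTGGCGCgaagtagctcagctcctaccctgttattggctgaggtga
A match is a run of letters and says nothing of binding.

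Some NRF2 targets of antioxidant defence also rose. Of 30 tested, 8 rose and 0 fell (10 and 0 with the block), against 1.47% higher over all genes tested and 2.67% with the block. The median was 0.50, and in 17 every IR kidney lay above every baseline kidney, against 14.9% of all genes. With a library left out 2 to 9 rose, and without both WT baseline 2 and 3 the median was 0.62. Nqo1, a quinone reductase, measured 39.8, 24.2 and 22.7 FPKM at baseline and 130, 119 and 107 FPKM after IR, with no overlap (log2 fold change 1.97, SE 0.23; adjusted p = 0.0108, edgeR). Srxn1, which encodes sulfiredoxin, the enzyme that repairs oxidised peroxiredoxins, rose from 19.5, 16.03 and 21.3 FPKM to 65.7, 95.1 and 85.8 FPKM (log2 fold change 2.06, SE 0.20; adjusted p = 0.00844, edgeR). Of the 5 glutathione transferases in the list 3 rose, Gsta1 by 4.96, Gsta2 by 3.20 and Gstp1 by 1.58, while Gsta4 and Gstm1 had log2 fold changes of -0.37 and 0.35 and were not called. Gsta1 and Gsta2 are near-identical copies, as is Gm10639, which rose by 4.18, so their reads cannot be told apart with confidence. Txnrd1, thioredoxin reductase, Pgd of the NADPH-producing pentose phosphate pathway and Gsr, glutathione reductase, rose by 1.28, 1.28 and 1.01. Hmox1, the haem-degrading enzyme heme oxygenase 1, measured 11.5, 14.7 and 12.9 FPKM at baseline and 28.6, 158 and 70.4 FPKM after IR, and its adjusted p was 0.0564 by edgeR and 0.0181 with the block. Gclm, of glutathione synthesis, passed the p threshold (adjusted p = 0.0341, edgeR) at a log2 fold change of 0.85. Nfe2l2, which encodes NRF2, had a log2 fold change of 0.43 and was not called.

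The promoter windows of Gstp1 and Srxn1, of this group, are shown because they hold the AP-1-type letters TGANTCA, searched on both strands and found in 4.67% of all windows, in 10.1% of those of genes that rose and in 1.79% of those of genes that fell. The antioxidant response element letters TGACNNNGC, a motif known for NRF2, were found in 12.1% of all windows in 12.5% of those of genes that rose, in 5 of the 26 windows of the NRF2 targets tested (19.2%) and in 0 of the 7 windows of those that rose. Capitals mark TGANTCA in the windows of Gstp1 (chr19:4037913-4038162, minus strand) and Srxn1 (chr2:152105274-152105523, plus strand), both in GRCm38.p6.
Gstp1: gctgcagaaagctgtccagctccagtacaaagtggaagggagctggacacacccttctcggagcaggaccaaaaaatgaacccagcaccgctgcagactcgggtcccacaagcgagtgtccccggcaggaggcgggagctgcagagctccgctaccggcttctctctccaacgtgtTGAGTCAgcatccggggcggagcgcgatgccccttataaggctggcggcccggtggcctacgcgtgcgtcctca
Srxn1: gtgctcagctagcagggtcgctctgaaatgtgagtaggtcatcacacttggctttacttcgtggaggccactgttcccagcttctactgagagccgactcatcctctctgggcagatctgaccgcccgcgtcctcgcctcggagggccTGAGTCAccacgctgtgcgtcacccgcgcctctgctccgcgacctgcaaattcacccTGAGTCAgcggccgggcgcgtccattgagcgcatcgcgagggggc
No match says only that these exact letters are not in the window, and near matches were not searched. Both windows shown hold TGAGTCAGC, which differs from TGACNNNGC only in the letter before NNN.

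Other stress programmes held calls in both directions, against 1.47% higher and 0.879% lower over all genes tested. Of 27 tested AP-1 and immediate early genes, 2 rose and 2 fell, with a median of -1.03, and in 10 every IR kidney lay below every baseline kidney, against 14.5% of all genes. Dusp1, a phosphatase that switches off MAP kinases (chr17:26642536-26645417 in mm9), measured 115, 129 and 51.8 FPKM at baseline and 9.58, 10.9 and 9.91 FPKM after IR. The fall of Dusp1 by 3.34 on the log2 scale (SE 0.33; adjusted p = 0.00876, edgeR) held whichever library was left out. Nr4a1, an orphan nuclear receptor, measured 21.5, 24.2 and 9.40 FPKM at baseline and 0.869, 2.48 and 2.94 FPKM after IR (log2 fold change -3.16, SE 0.55; adjusted p = 0.0341, edgeR). Fosl1, an AP-1 subunit, rose from at most 0.238 FPKM at baseline to 0.652, 3.85 and 6.07 FPKM, and Myc, which drives growth genes, from at most 1.66 FPKM to 3.51, 11.2 and 12 FPKM. Fos measured 8.48, 24.1 and 5.25 FPKM at baseline and 0.397, 3.92 and 3.99 FPKM after IR, which was not called (adjusted p = 0.196, edgeR), and Jun overlapped between groups. With the block, 7 genes of this list fell and 2 rose, against 3.48% and 2.67% of all genes tested. Without both WT baseline 2 and 3 the median was -0.72.

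Heat shock genes showed 0 rises and 0 falls among 23 tested (2 fell with the block), with a median of -0.18. Hspa1a, an inducible HSP70, measured 10.4, 52.2 and 12.1 FPKM at baseline and 3.903, 7.66 and 7.15 FPKM after IR (adjusted p = 0.134, edgeR; 0.0397 with the block). The WT baseline 2 kidney was the highest for Hspa1a, Fos and Nr4a1. Of 27 tested ER stress and ATF4 targets, 1 rose and 1 fell (4 and 3 with the block). Mthfd2, of mitochondrial folate metabolism, rose by 1.84, and Herpud1, of ER-associated degradation, fell by 1.21. Of 26 tested p53 targets and growth arrest genes, Aen, an exonuclease of apoptosis, rose by 1.18 and Gadd45g fell by 2.24 on the log2 scale, whereas Cdkn1a, which encodes p21, measured 6.23, 14.2 and 3.16 FPKM at baseline and 7.46, 20.4 and 24.7 FPKM after IR, with overlap. Hypoxia and glycolysis genes had a median of 0.02 and 0 calls among 30 tested, with Vegfa at a log2 fold change of -0.28. Of 21 tested metallothionein and iron genes Lcn2 alone was called, and Mt2, a metal-binding metallothionein, had no overlap (29.9 to 64.7 against 88.5 to 283 FPKM) at an adjusted p of 0.0751 by edgeR. Of 28 tested growth factor genes, Nrg1, a ligand of ERBB receptors, rose by 2.09 and Igfbp3, which binds insulin-like growth factors, fell by 2.10. Egf, which the distal tubule makes, measured 182, 67.2 and 353 FPKM at baseline and 101, 62.4 and 56.4 FPKM after IR, and this wide baseline spread overlapped the IR kidneys. Of 25 tested cholesterol synthesis genes 0 were called, with a median of 0.07. With the block 1 p53 target rose and 3 fell, 4 metallothionein and iron genes rose, 2 growth factor genes rose and 1 fell, and 1 cholesterol synthesis gene fell. The shares over all genes tested were 1.47% higher and 0.879% lower, and 2.67% and 3.48% with the block.

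Acute phase and complement genes split. Of 28 tested, 5 rose and 0 fell, against 1.47% and 0.879% of all genes tested. With the block 7 rose and 5 fell, against 2.67% and 3.48%. The list's median was -0.25, and 0.49 without both WT baseline 2 and 3. With a library left out 2 to 7 rose. Saa1, serum amyloid A1, measured 0, 0 and 0.027 FPKM at baseline, at most 1.5 counts, and 4.57, 5.33 and 10.7 FPKM after IR. Summed over the libraries, 2 counts of Saa1 at baseline (after rounding up from 1.5) stood against 976 after IR, a ratio of 578 with a 95% exact interval of 160 to 4776 that covers counting error only (adjusted p = 0.00844, edgeR). Its relative Saa2 had no counts at baseline and was at least 10.3-fold higher after IR, taking 3 counts per library as the floor. The fitted log2 fold change of 8.88 for Saa1 depends on the prior count, and the 2 genes are close paralogs. Both passed the count filter through the IR group alone. C3, the central complement component (chr17:57343390-57367559 in mm9), measured 2.25, 1.78 and 3.54 FPKM at baseline and 27.5, 45.4 and 39.6 FPKM after IR. The IR kidneys lay close together, and the log2 fold change of C3 was 3.83 (SE 0.34; adjusted p = 0.00728, edgeR), a call that held without any library. Of the fibrinogen chains, 2 rose: Fgg from 2.55, 2.22 and 10.7 FPKM to 46.6, 264 and 141 FPKM (log2 fold change 4.79, SE 0.91; adjusted p = 0.043, edgeR), and Fga by 3.51. The other chain, Fgb, had a mean of 0.268 FPKM at baseline and 22.1 FPKM after IR, with an adjusted p of 0.0645 by edgeR and 0.0159 with the block. Cfd, complement factor D, which fat makes in quantity, measured 0.955, 31.2 and 90.2 FPKM at baseline and 0.031, 2.12 and 0.180 FPKM after IR, in the same order as the adipocyte markers across the baseline kidneys.

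Inflammatory genes were taken in several lists. Of 32 tested cytokine and chemokine genes (of 41 listed), 0 rose and 1 fell, against 1.47% and 0.879% of all genes tested. With the block 5 rose and 1 fell, against 2.67% and 3.48%. With a library left out 0 to 9 rose, 9 of them without WT IR 1. Cxcl9, a chemokine for T cells, fell from 0.441, 0.495 and 0.302 FPKM to 0.055, 0.092 and 0.033 FPKM (log2 fold change -2.83, SE 0.41; adjusted p = 0.0222, edgeR). Cxcl1, a neutrophil chemokine, measured 10.04, 9.64 and 3.43 FPKM at baseline and 3.62, 25.7 and 35.6 FPKM after IR, so that WT IR 1 lay within the baseline range. Cxcl2 measured 0.079 to 0.175 FPKM at baseline and 0.281, 1.73 and 0.810 FPKM after IR, with no overlap and an adjusted p of 0.079 by edgeR. Il6 was at 0 counts in all baseline kidneys and at 0.013, 0.046 and 0.101 FPKM after IR, at most 9 counts, and was not tested. Tnf, Il1b, Ccl2 and Ccl6 were not called, and their mean levels after IR were 0.137, 0.445, 0.651 and 0.755 FPKM.

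In STAT3, NF-kB and Toll-like receptor signalling, 2 of 37 tested genes rose and 0 fell, against 1.47% and 0.879% of all genes tested. Mlkl, the executor of necroptosis, measured 0.303, 0.291 and 0.220 FPKM at baseline and 0.928, 2.60 and 4.32 FPKM after IR (log2 fold change 3.24, SE 0.59; adjusted p = 0.0387, edgeR), and Icam1, a leukocyte adhesion molecule, rose by 1.34. Socs3, a feedback inhibitor of STAT3, measured 0.929, 0.821 and 0.742 FPKM at baseline and 1.19, 12.8 and 5.61 FPKM after IR and was not called (adjusted p = 0.0856, edgeR). With a library left out 0 to 7 genes of this list rose, 7 of them without WT IR 1. Of 33 tested interferon-stimulated genes Gbp3, a guanylate-binding protein, rose by 1.31, and the list's median was -0.05. Of 29 tested adhesion and coagulation genes, S100a10, an annexin A2 partner in plasmin generation, rose by 1.53 along with Icam1. With the block 5 genes of STAT3, NF-kB and Toll-like receptor signalling rose and 1 fell, 1 interferon-stimulated gene rose and 1 fell, and 4 adhesion and coagulation genes rose. The block's shares over all genes tested were 2.67% higher and 3.48% lower.

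Markers of blood cells gave different pictures by lineage. Of 26 neutrophil markers 10 passed the count filter, and a marker near 0 at baseline could pass through the IR group alone, so their common direction is not read as a result. Lcn2 and Trem1 rose, and with a library left out 0 to 2 of the list did. Lcn2 is also made by tubule cells, and Trem1 reached at most 30.5 counts. S100a8 measured 0.708, 0.287 and 0.814 FPKM at baseline and 1.77, 3.29 and 2.32 FPKM after IR, with no overlap (log2 fold change 1.96, SE 0.48; adjusted p = 0.0789, edgeR). Ly6g and Mpo, which define neutrophils, had means of at most 0.044 FPKM. Of 30 tested macrophage and monocyte markers, 2 rose and 0 fell, against 1.47% and 0.879% of all genes tested, with a median of -0.32. With the block 2 rose and 3 fell, against 2.67% and 3.48%. Cd68, a lysosomal protein of phagocytes, measured 1.71, 1.70 and 1.02 FPKM at baseline and 9.04, 11.9 and 12.8 FPKM after IR (log2 fold change 2.88, SE 0.28; adjusted p = 0.00844, edgeR). Cd14, the lipopolysaccharide co-receptor, measured 1.98, 1.46 and 1.70 FPKM and then 4.89, 15.1 and 5.90 FPKM (log2 fold change 2.25, SE 0.43; adjusted p = 0.0446, edgeR). Adgre1, which encodes F4/80, was not called, with 0.267 to 0.641 FPKM at baseline and 0.105 to 0.655 FPKM after IR, and C1qa and Lyz2 had log2 fold changes of -0.23 and -0.36. Csf1r, the receptor for macrophage colony-stimulating factor, measured 21.1, 17.2 and 19.2 FPKM at baseline and 15.9, 5.57 and 4.93 FPKM after IR (adjusted p = 0.156, edgeR; 0.0296 with the block).

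All 25 lymphocyte markers tested had negative log2 fold changes, against 8445 of 16043 genes tested, with a median of -1.27. Without the block 0 were called, and 5 fell with it, against 3.48% of all genes tested. In 14 of them every IR kidney lay below every baseline kidney, against 14.5% over all genes tested, and without both WT baseline 2 and 3 the median was -1.47. The mean level of the 27 listed lymphocyte markers was -1.17, -1.34 and -1.33 at baseline and -1.74, -1.95 and -2.38 after IR as log2(FPKM + 0.1). Cd3e, of the T cell receptor complex, measured 0.156, 0.135 and 0.221 FPKM at baseline and 0.050, 0.061 and 0.009 FPKM after IR. These levels are near the low end of what was measured, and single markers carried wide errors. A marker near 0 after IR could pass the count filter through the baseline group alone, so the common direction of this list is not read as a result.

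**Figure D3:**
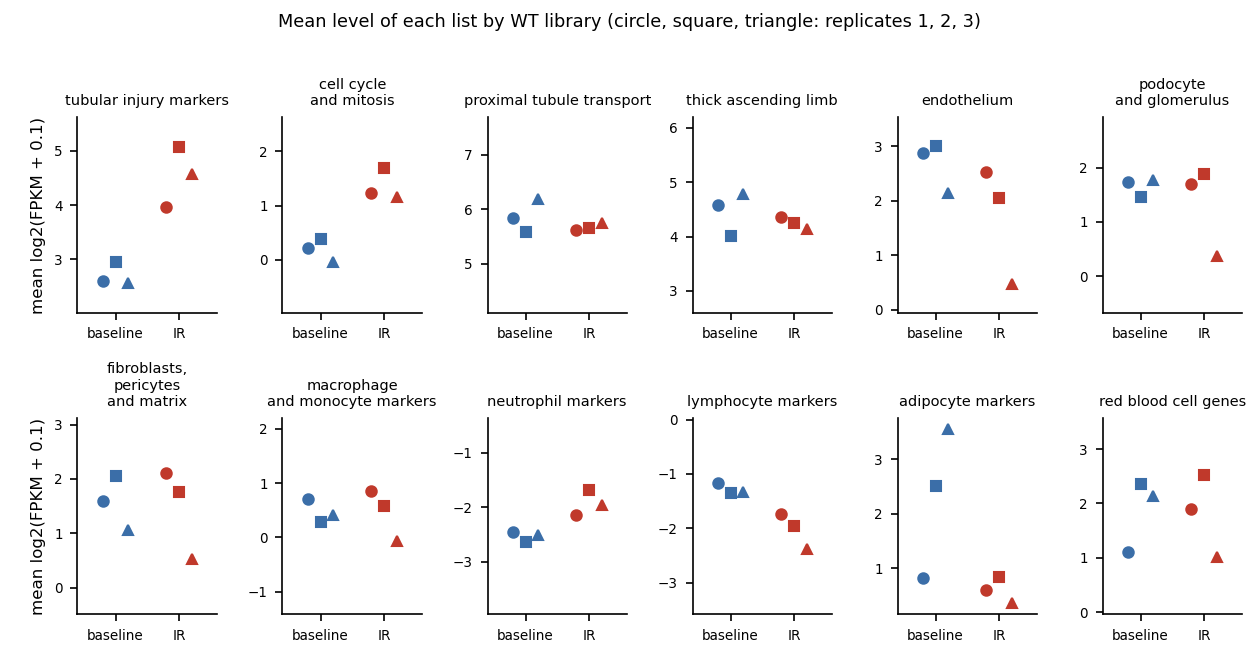
Mean level of 12 cell type and programme lists in each of the 6 WT kidneys, as the mean of log2(FPKM + 0.1) over the genes listed. Injury markers lie between 2.56 and 2.95 at baseline and between 3.97 and 5.08 after IR, and adipocyte markers reach 3.55 in WT baseline 3.

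Of 27 endothelial markers tested 26 had negative log2 fold changes, against 8445 of 16043 genes tested. Their median was -0.99, and -1.13 without both WT baseline 2 and 3. None was called, and 9 fell with the block, against 3.48% of all genes tested. The mean level was 2.88, 3.01 and 2.14 at baseline and 2.53, 2.05 and 0.46 after IR, so WT IR 1 lay within the baseline range and WT IR 2 and 3 below it. Pecam1, an adhesion molecule of the vessel wall, measured 11.3, 16.7 and 7.30 FPKM at baseline and 10.4, 6.90 and 1.16 FPKM after IR. Emcn, which encodes endomucin, measured 34.8, 62.6 and 21.6 FPKM and then 20.4, 16.3 and 2.56 FPKM (adjusted p = 0.203, edgeR; 0.0272 with the block). WT IR 3 was also the lowest library in podocyte markers, with a mean level of 0.37 against 1.46 to 1.88 in the other 5. Of 22 tested podocyte genes 0 were called. Of 40 tested fibroblast and matrix genes Timp1 alone was called, and 6 fell with the block, among them Pdgfra and Dcn. Red blood cell genes were not called in any of 9 tested, with Hbb-b1 at 14 to 68.1 FPKM at baseline and 9.72 to 80.4 FPKM after IR. Of the skeletal muscle and adrenal cortex markers 0 were called among 12 and 7 tested, and 2 and 1 fell with the block. With the adipocyte level as a covariate 0 genes were called, while the median log2 fold change was 1.69 for injury markers, 1.12 for cell cycle genes, 0.64 for NRF2 targets and -0.88 for androgen-responsive genes, against 1.64, 0.94, 0.50 and -1.12 without it. Other medians moved towards 0 with this covariate, to 0.02 from -0.25 for acute phase and complement genes, to -0.03 from -0.24 for podocyte genes and to -0.01 from -0.25 for thick ascending limb genes. The part of the endothelial and podocyte levels of single libraries in the calls was not tested.

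Part of the proximal tubule genes fell. Of 47 tested transport genes, 0 rose and 3 fell (0 to 4 with a library left out, and 1 rose and 6 fell with the block), against 0.879% lower over all genes tested and 3.48% with the block. The median was -0.29, and in 13 every IR kidney lay below every baseline kidney, against 14.5% of all genes. Slc7a13, an aspartate and glutamate transporter of the straight segment, measured 326, 276 and 378 FPKM at baseline and 116, 89.4 and 58.1 FPKM after IR (log2 fold change -1.98, SE 0.25; adjusted p = 0.0154, edgeR). Slco1a1 and Slc22a30, organic anion transporters, fell by 1.12 each on the log2 scale. Slc34a1, the main sodium-phosphate cotransporter, measured 1477, 1541 and 1370 FPKM at baseline and 760, 477 and 716 FPKM after IR without overlap, and its adjusted p was 0.051 by edgeR and 0.023 with the block. Lrp2, the endocytic receptor megalin, overlapped, with 56.0 to 106 FPKM and 57.6 to 87.9 FPKM. Slc13a1, a sodium-sulfate cotransporter, went the other way, from 47.6, 40.5 and 80.1 FPKM to 85.6, 191 and 214 FPKM, and was not called (adjusted p = 0.106, edgeR). Of 29 tested brush border genes Miox, which starts the breakdown of myo-inositol, fell from 947, 953 and 812 FPKM to 341, 198 and 289 FPKM (log2 fold change -1.77, SE 0.23; adjusted p = 0.0161, edgeR). With the block 4 brush border genes fell. Kap, an androgen-regulated protein and the most abundant transcript named here, measured 31262, 49842 and 30634 FPKM at baseline and 20110, 20100 and 23749 FPKM after IR, and was not called (adjusted p = 0.162, edgeR).

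Genes of the later nephron were taken in 4 lists. In the thick ascending limb Ppp1r1b, a phosphatase inhibitor, fell by 1.39 and Tmem207 by 1.77, 2 of 21 tested, against 0.879% of all genes tested, while Umod, which encodes uromodulin, had a log2 fold change of 0.15. Of 21 distal convoluted and connecting tubule genes, 23 of principal cells and 20 of intercalated cells tested, 0 were called, with medians of -0.10, -0.06 and -0.14. With the block 1, 2 and 1 of them fell, against 3.48% of all genes tested. Aqp2, the vasopressin-regulated water channel, measured 375, 775 and 371 FPKM at baseline and 482, 435 and 314 FPKM after IR. The junction genes the study names, Cldn8 and Tjp1, had log2 fold changes of -0.72 (SE 0.25; adjusted p = 0.157, edgeR) and -0.15 (SE 0.19; adjusted p = 0.675, edgeR).

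**Figure D4:**
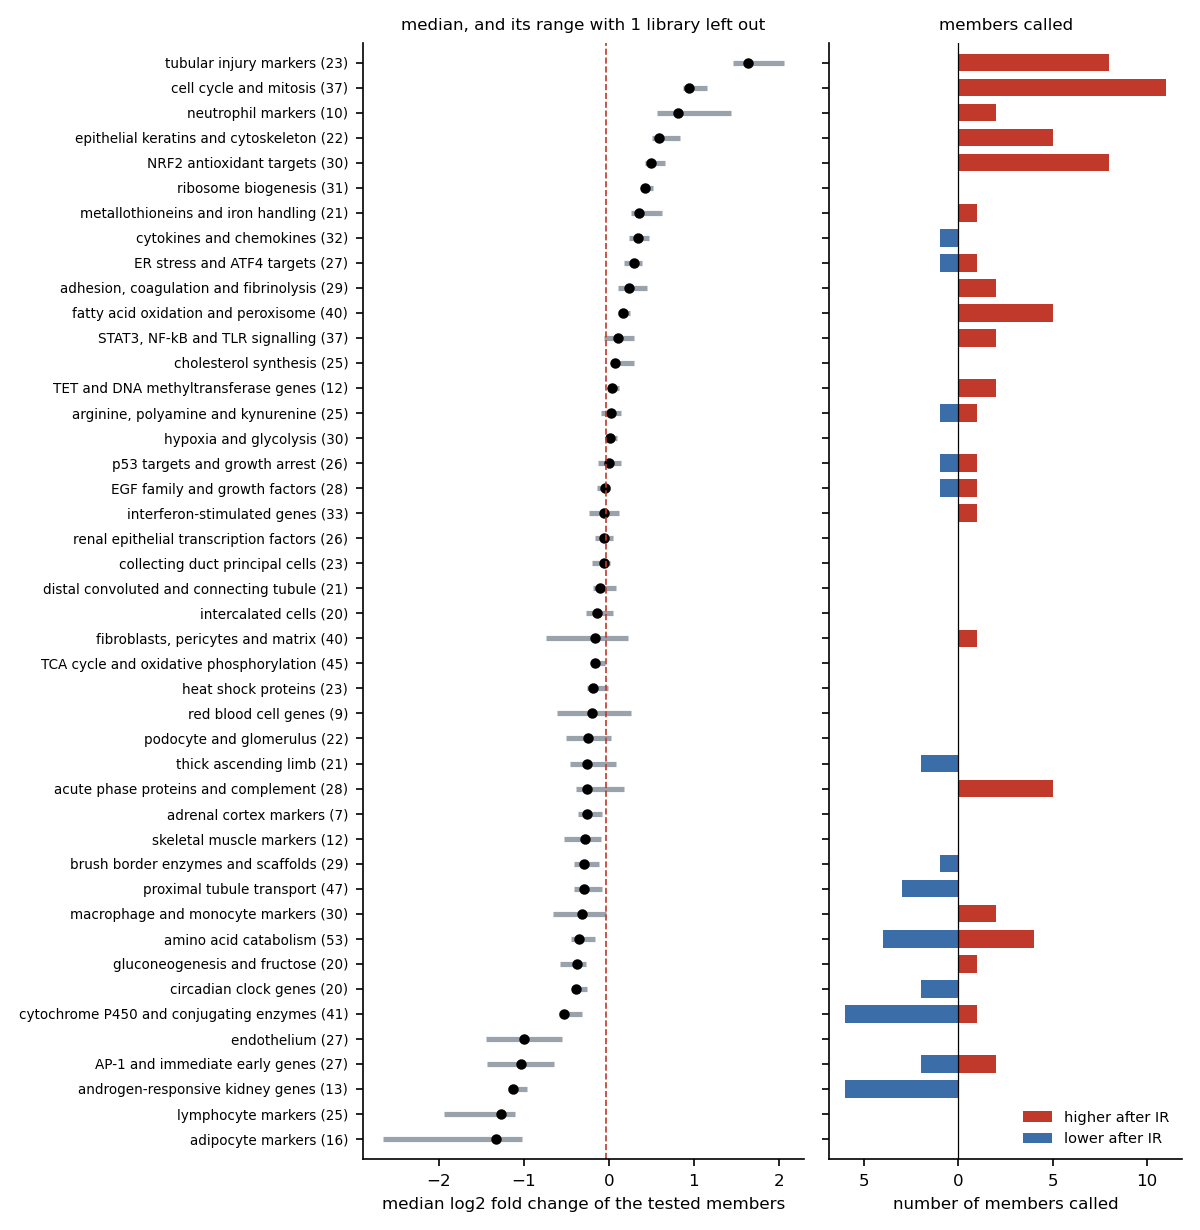
For each gene list (number tested in brackets), the left panel gives the median log2 fold change with its range when 1 library is left out, beside a dashed line at the median of all genes tested, and the right panel the number of genes called higher or lower after IR. The largest counts are 11 of 37 cell cycle genes, 8 of 23 injury markers and 8 of 30 NRF2 targets higher, and 6 of 13 androgen-responsive and 6 of 41 cytochrome P450 and conjugating genes lower.

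Metabolic genes changed in both directions. Of 40 tested genes of fatty acid oxidation and the peroxisome, 5 rose and 0 fell, against 1.47% and 0.879% of all genes tested. The median was 0.17, and with a library left out 0 to 4 rose. Cyp4a14, a fatty acid hydroxylase, measured 15.5, 4.80 and 3.53 FPKM at baseline and 201, 63.4 and 336 FPKM after IR, with WT IR 2 well below the other IR kidneys and still above baseline (log2 fold change 4.63, SE 0.85; adjusted p = 0.0401, edgeR), and its relative Cyp4a10 rose by 2.28. The Cyp4a genes are close paralogs, and their reads may be shared. Plin2, which coats lipid droplets, rose from at most 44.2 FPKM at baseline to 91.5, 290 and 340 FPKM, and Acaa1b, a peroxisomal thiolase, rose by 1.39. All of these but Plin2 were lowest in WT IR 2 among the IR kidneys. Cpt1a, which lets long-chain fatty acids into mitochondria, and Acadm had log2 fold changes of 0.08 and -0.34. Of 45 tested genes of the citric acid cycle and oxidative phosphorylation 0 were called, and 37 had negative log2 fold changes of small size, with a median of -0.16.

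Of 53 tested genes of amino acid catabolism 4 rose and 4 fell, against 1.47% and 0.879% of all genes tested. With a library left out 1 to 3 rose and 2 to 7 fell. With the block 5 rose and 7 fell, against 2.67% and 3.48%. Ass1, which makes argininosuccinate on the way to arginine, fell from 256, 268 and 237 FPKM to 103, 73.7 and 71.6 FPKM (log2 fold change -1.68, SE 0.16; adjusted p = 0.00844, edgeR). The call of Ass1 held whichever library was left out. Cbs, of transsulfuration, fell by 1.22 and Acmsd, of tryptophan breakdown, by 1.80 on the log2 scale. Glud1 and Gpt2, which feed glutamate carbon into the citric acid cycle, rose by 1.31 and 1.59, and Ddc, which makes dopamine in the tubule, by 1.02. G6pc, the glucose-6-phosphatase of gluconeogenesis, measured 177, 66.8 and 140 FPKM and then 45.0, 26.9 and 52.4 FPKM (adjusted p = 0.0803, edgeR; 0.00657 with the block).

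Of 41 tested cytochrome P450 and conjugating enzymes 6 fell and 1 rose, against 0.879% and 1.47% of all genes tested, and with a library left out 1 to 5 fell. With the block 11 fell and 5 rose, against 3.48% and 2.67% of all genes tested. Cyp2e1 measured 1157, 1100 and 1183 FPKM at baseline and 321, 365 and 506 FPKM after IR (log2 fold change -1.58, SE 0.25; adjusted p = 0.0265, edgeR). Cyp2j13 fell by 1.70, Cyp7b1, an oxysterol hydroxylase, by 1.53, Fmo5 by 1.24, Cyp4b1 by 1.15 and Aox3 by 3.31 on the log2 scale. Of these, 4 also belong to the 13 androgen-responsive genes tested, of which 6 fell and 0 rose (7 and 1 with the block), with a median of -1.12. The mean level of that list was 7.30, 7.31 and 7.62 at baseline and 6.52, 6.63 and 6.64 after IR. With a library left out 1 to 5 of them fell, and without both WT baseline 2 and 3 the median was -0.90. Inmt, an indole N-methyltransferase outside these lists (chr6:55120621-55124984 in mm9), measured 778, 705 and 689 FPKM at baseline and 157, 77.0 and 101 FPKM after IR, a fall of 2.76 on the log2 scale (SE 0.27; adjusted p = 0.00844, edgeR). Of 20 tested clock genes Ciart fell by 1.98 and Nr1d1, which encodes REV-ERBalpha, by 1.18, with 0 rising, and 3 fell with the block. The hour at which kidneys were taken is not given in the sources used here.

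The remaining genes with the largest changes at a mean of at least 10 FPKM belong to no list. Tpsab1, a mast cell tryptase, rose from 0.077, 0.324 and 0.189 FPKM to 7.69, 5.98 and 21.9 FPKM, and 2010003K11Rik from 1.13, 1.58 and 1.61 FPKM to 22.8, 33.2 and 35.6 FPKM (log2 fold change 4.35, SE 0.27; adjusted p = 0.00545, edgeR). Upp2, a uridine phosphorylase, fell by 3.21, Eddm3b by 2.89, Gm6300 fell by 2.66, Kif20b, a mitotic kinesin, by 2.71 and 8430408G22Rik by 2.28. Kif20b fell, unlike Top2a and Ccnb1, from 11.5, 11.7 and 7.17 FPKM to 2.01, 1.61 and 1.26 FPKM.

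The same contrast in the libraries labelled Tet2-/- was set beside the WT values for the genes called in WT. At baseline Tet2 measured 9.25, 16.6 and 10.3 FPKM in those libraries, all above the 6.25 to 9.15 FPKM of WT, and after IR it measured 2.64, 3.20 and 1.76 FPKM, all below the 3.85 to 9.34 FPKM of WT. The order thus went against the label at baseline and with it after IR, and the genotype is given as labelled. Of the 236 genes that rose in WT 231 had a positive log2 fold change there, and of the 141 that fell 139 had a negative one. In a fit of all 12 libraries the median log2 fold change of the genes that rose was 1.88 in WT and 2.02 in the other genotype, and that of the genes that fell was -1.70 and -2.54. The difference itself was tested as an interaction in edgeR and called at an adjusted p under 0.05, with no threshold on its size. It was called in 1539 of 16755 genes, or 9.19%. Among the genes called in WT it was called in 23 that rose, 16 of them changing more in the other genotype, and in 43 that fell, 41 of them changing more there. Since the WT libraries chose these genes and also enter the difference, the counts are a description. Slc7a13, for example, fell to 58.1 to 116 FPKM in WT and to 5.18 to 15.3 FPKM in the libraries labelled Tet2-/- (adjusted p of the difference 0.00384, edgeR).

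**Figure D5:**
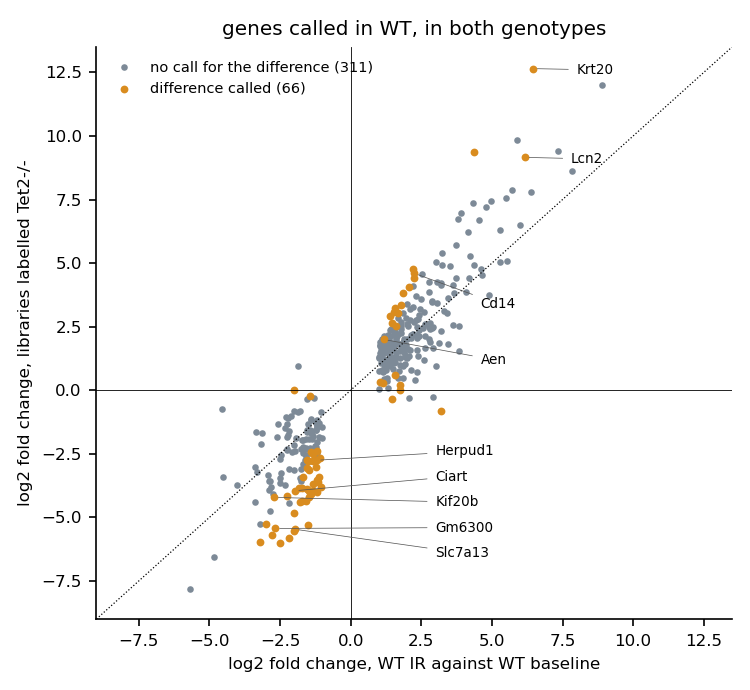
Log2 fold change of IR over baseline in libraries labelled Tet2-/- (vertical axis) against that in WT (horizontal axis) for the 377 genes called in WT, 1 point per gene, with genes whose difference was called in orange. All but 7 genes share the sign, and Krt20, Lcn2 and Slc7a13 lie further from 0 in the libraries labelled Tet2-/-.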

How the data were processed

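Read counts were deposited by the authors as estimated counts per RefSeq transcript for 12 kidney libraries, in steps of 0.5, with 38.7% of the values not whole. FPKM values for the same transcripts were deposited by the authors in a second table. Per the labels and the study's methods, reads were aligned to mm9 with STAR and counted with HOMER, whose versions are not given in the sources used here, and edgeR was the authors' test. All sample columns were mapped by name, and 0 were left unused.

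For each of 24421 symbols only the transcript with the most counts was kept, summing across all 12 kidneys, which can hide a change in transcript use. Counts were rounded to whole numbers, since the planned test assumed whole counts. The 6 WT libraries were fitted in edgeR 4.0.16 under R 4.3.3 with TMM normalisation, filterByExpr and the quasi-likelihood F test, and SEs were taken from the F statistic. limma 3.58.1, DESeq2 1.42.0, Python 3.11.15, pandas 2.3.3 and matplotlib 3.10.9 were used for alternatives, tables and plots. The design holds 3 mice per group, and an exact permutation test of 3 against 3 cannot give a two-sided p below 0.1, so single values were tested only within the fit across all genes. Same-numbered baseline and IR libraries deviated together (correlations of 0.379, 0.362 and 0.358, all other pairs negative). Deviations were taken from each group's mean and cancel within a group, so the negative pairs add no separate evidence. The pairing comes from these correlations, as the labels say nothing of a shared batch, and the fit with the replicate number as a block is given beside most lists and some genes whose calls it moved.

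The members and the 44 gene lists, with 1173 distinct genes, were chosen with earlier results of these data known. Of the listed symbols 5 were not matched. Genes were named by rule: the 10 largest changes each way among called genes with no overlap and a mean of at least 10 FPKM, 2 anchors per list, the largest called member each way in a list at a mean of at least 1 FPKM, and the genes the study names. Other list members, the genes outside the lists in the closing section, and the summed counting ratios were chosen after values were seen. Some genes that the rule names are not reported here. Level means of lists are over log2(FPKM + 0.1). Promoter windows came from RefSeq's GRCm38.p6 and were matched by symbol, whereas gene coordinates are those of the deposited mm9 tables. On simulated data with 200 genes changed by 2 on the log2 scale, the test recovered 182 and called 8 others among 15856 genes, and without changes it called 0. The simulated counts were drawn independently around the baseline means. They lack the shared replicate deviations and the differences between libraries seen in the data. Alternatives covered other tests, normalisations, filters, thresholds, covariates and left-out libraries. P-values measure the spread between these mice only.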

Additional observations from a re-analysis of the deposited data

Results flagged for a closer look

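Of the genes named here and called in WT, 9 had an IR effect that differed between WT and the libraries labelled Tet2-/- by edgeR's interaction test over 12 libraries. These genes were chosen partly for their WT values, and WT libraries enter the difference. Values are log2 differences of the IR effect, the other genotype minus WT. Calls were made at an adjusted p under 0.05 with no threshold on size, and 9.19% of all genes tested were called.

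The rise was larger in the libraries labelled Tet2-/- for 4 genes. Krt20 differed by 6.181 (SE 1.10; adjusted p = 0.00877, edgeR), from 0.028 to 0.067 FPKM at baseline to 399.5, 260.9 and 436.3 FPKM after IR in those libraries. In WT it measured 0.247, 1.37 and 1.01 FPKM at baseline and 26.6, 56.9 and 151 FPKM after IR. Part of the difference of Krt20 thus lies at baseline, where its levels were low. Lcn2 differed by 2.988 (SE 0.829; adjusted p = 0.0461, edgeR) and reached 1923, 1849 and 907.7 FPKM there. Cd14 differed by 2.344 (SE 0.552; adjusted p = 0.0269, edgeR) and Aen by 0.8194 (SE 0.196; adjusted p = 0.0285, edgeR).

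The fall was larger there for 5 genes. Slc7a13 differed by -3.491 (SE 0.479; adjusted p = 0.00384, edgeR), Gm6300 by -2.773 (SE 0.619; adjusted p = 0.0217, edgeR), Ciart by -1.973 (SE 0.449; adjusted p = 0.0237, edgeR), Herpud1 by -1.546 (SE 0.326; adjusted p = 0.0172, edgeR) and Kif20b by -1.508 (SE 0.292; adjusted p = 0.012, edgeR). The part of depth or batch in these differences was not tested.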

How the results depend on the processing

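Against 236 genes higher and 141 lower in WT, DESeq2 called 490 and 488, edgeR's exact test 497 and 467, and a single fit of 12 libraries 383 and 256. With a fold threshold of 2 on the log2 scale 106 and 51 remained by construction. With the adipocyte marker level as a covariate 0 and 0 were called by edgeR (1866 at an unadjusted p under 0.05), and list medians moved both away from and towards 0 (injury markers 1.69 against 1.64, acute phase genes 0.02 against -0.25). Without both WT baseline 2 and 3, an alternative chosen after seeing the data in which the lone baseline library is assumed to vary like the IR group, 0 were higher and 1 lower. The replicate block gave 429 and 559, including all 377 genes. Leaving out single libraries gave 42 (without WT baseline 3) to 372 (without WT IR 1) higher and 36 (without WT IR 2) to 187 (without WT IR 1) lower, the fits without any library but WT IR 1 calling at most 92 and 55. Of the calls, 30 higher and 25 lower held in all 6 such fits. The cause was not tested beyond the loss of samples. Other normalisations, filters, limma on FPKM, all transcripts and no fold threshold stayed within 1.5 times the counts given (177 to 350 higher, 102 to 196 lower), and no named gene called in WT changed sign. For the interaction, called in 1539 genes, DESeq2 called 2813, the replicate block 2129, and left-out libraries gave 701 (without Tet2-/- baseline 3) to 2062 (without WT IR 2).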

Other observations

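Outside the lists, 293 further genes were called, and those named here were chosen after their values were seen. Among those that rose were genes of DNA replication and repair. Dtl, which targets replication factors for degradation, went from 0.046, 0.061 and 0.020 FPKM to 0.916, 1.83 and 1.24 FPKM (log2 fold change 4.88, SE 0.48; adjusted p = 0.00844, edgeR). Brca1, of homologous recombination, rose by 2.82, and Exo1, an exonuclease of mismatch repair, by 3.65. Among secreted and metabolic proteins, Lrg1, a leucine-rich glycoprotein of the acute phase, rose from 4.47, 4.80 and 2.63 FPKM to 29.5, 52.7 and 32.5 FPKM (log2 fold change 3.20, SE 0.30; adjusted p = 0.00844, edgeR). Cyp2a5, a cytochrome P450, rose by 3.32, Apoa4, an apolipoprotein, by 3.20, Mgst1, a microsomal glutathione transferase, by 2.31, Ucp2, a mitochondrial carrier, by 2.02 and Wfdc2, which encodes HE4, by 1.54. Cyp2a5 has close paralogs that may share its reads.

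Among the genes that fell outside the lists, Hsd17b11, a steroid and lipid droplet dehydrogenase, went from 340, 377 and 332 FPKM to 123, 87.4 and 118 FPKM (log2 fold change -1.73, SE 0.19; adjusted p = 0.00997, edgeR). Ttr, transthyretin, measured 57.0, 72.6 and 45.1 FPKM at baseline and 12.57, 14.4 and 15.9 FPKM after IR. Car4, a membrane carbonic anhydrase, fell by 1.83, Cela1, an elastase, by 2.21 and Bcl6, a transcriptional repressor, by 2.23 on the log2 scale. Cndp2, a dipeptidase, fell by 1.59 to a mean of 317 FPKM. Adh1, an alcohol dehydrogenase, fell by 1.203 to a mean of 304 FPKM. Grp, a gastrin-releasing peptide precursor, had 1 count in the summed baseline libraries and 202 after IR, a ratio of 239 with a 95% exact counting interval of 42.4 to 9490.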
